A study of Oryza sativa Japonica Group with 28 samples.

Results

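Among the 45990 genes of the deposited table, 160 carried the gene ontology term for intracellular protein transport, and they are described here across 13 groups of rice grain tissue. They were taken from the annotation column of the table by 1 rule, the presence of that term without the term for protein folding. As 0 genes held both terms, leaving out the folding term removed none. Of the 160, 154 passed the filter on low values and were tested. The table gives locus identifiers and annotation terms, but its gene name column is empty and does not pair the identifiers with names, so each gene is called by its identifier and by the role its other terms give it.

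The samples were grains of the japonica cultivar Nipponbare, grown in hydroponic culture at 28 °C and not otherwise treated. Cells of each tissue were cut from sections by laser capture, with 3 grains in each preparation, and the RNA was amplified over 15 PCR cycles before sequencing, so a change in the number of cells of a type and a change in RNA per cell cannot be told apart. Grains were taken 4, 8 or 16 days after flowering (DAF). The cross cells (CC), the layer of the fruit wall that lies across the grain, had 2, 1 and 2 libraries at these stages. The nucellar epidermis (NE), a maternal layer between the seed coat and the filial tissue, had 3 at each stage. The ovular vascular trace (OVT), the vascular strand that unloads nutrients into the grain, had 3, 2 and 1. The starchy endosperm (EN), the filial storage tissue, had 1, 2 and 2, and its outer layer, the aleurone (AL), had 3 libraries at 16 DAF only. The study names the libraries of a group as biological replicates, with nothing in the labels to say that they came from separate plants, so p-values measure the spread between these libraries.

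The 28 libraries held an estimated 815257 to 97250045 reads, and a value of 3 reads stood between 0.132 and 33.4 on the scale of the deposited values. That scale sets 1 factor per library, and all values below are on it. The single OVT library of 16 DAF stood apart from the other OVT libraries, all of 4 and 8 DAF. Its summed endosperm markers (storage protein and starch genes) reached 1540636 against 2183 to 79273 in those libraries. Its summed OVT markers reached 990 against 9271 to 32753, and its NE marker was at 0. All its genes summed to 29215443 against 5253060.5 to 12990185, so these marker sums are not at an equal total. Among the libraries of 16 DAF its OVT marker sum was the highest, with NE MM17 next at 218.5. That sum came from the markers Os03g0751100 (756.2) and Os04g0542800 (211.3), and the other markers did not follow it. Os06g0676000 had 22.2, against 218 in NE MM17, and Os04g0413500 had 0, against 115.5 in CC MM18. Results that rest on this OVT library are given with these limits, and their cause was not tested. Endosperm markers also reached 12249 to 680864 in the 8 libraries of CC, NE and AL at 16 DAF, against 5789870 and 8642210 in EN. At that stage NE MM17 and AL MM17 correlated at 0.9896 over genes, higher than the EN pair of 8 DAF at 0.955. One CC library, MM05, is 4 DAF by its title but 8 DAF by another label, and was placed by its title. Titles carry the prefix X in 6 libraries, all of 4 DAF by title, and B in the other 22. The labels do not say what the prefix means. It is X in both CC libraries of 4 DAF and in MM05 and MM06 of NE and OVT. Stage and prefix thus coincide in CC and partly in NE and OVT.

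Proteins made on the endoplasmic reticulum move on in vesicles. COPII coats form those that leave for the Golgi, COPI coats those that return, and clathrin with its adaptors those that leave the late Golgi and the plasma membrane. Small GTP-binding proteins of the Rab, Arf, Sar and Ran kinds switch these steps on and off, SNARE proteins fuse vesicles with their target, and other machines carry proteins into the nucleus, the plastids and the mitochondria. In rice endosperm this traffic carries glutelins to storage vacuoles, while prolamins stay in bodies formed from the endoplasmic reticulum.

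By their terms, 44 of the 160 genes were GTP-binding proteins, of which 42 also held the term for small GTPase signalling and 30 that for GTPase activity. Coats and their helpers made up 10 COPII genes, 7 COPI genes, 5 clathrin coat genes, 12 clathrin adaptors and 12 genes of other membrane coats. There were 11 SNARE genes, 9 further genes of vesicle transport, 10 proteins placed in the endoplasmic reticulum, 14 protein transporters (3 of them for import into the nucleus) and 11 genes of membrane translocation, a group that took in 4 proteins of the mitochondrial outer membrane. The other 15 had no further term that gave a role. The 6 genes that were not tested were 3 SNARE genes, 2 GTP-binding proteins and 1 clathrin coat gene, of which 4 were at 0 in all 28 libraries.

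The genes were widely detected. A group mean above 10 in all 13 groups was met by 81 of the 154 tested genes (52.6%), against 16.7% of the 27486 genes tested in all, and 72 (46.8%) were above 0 in every library, against 13.7%. Their median level, as the mean over groups, was 271, against 50.9 for all genes tested. These shares describe the lists and were not tested against each other.

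Compared per kilobase of gene length, the highest level was that of Os05g0489600, a GTP-binding protein of 990 bases, at 3457 as a mean over libraries. Its deposited values ran from 1018 in the EN library of 4 DAF to 7773 in the OVT library of 16 DAF, and it was the only gene of its role above Os01g0558600, also a GTP-binding protein, at 2318 per kilobase. In membrane translocation the highest were Os02g0178400, a translocation pore gene of protein targeting, at 2389 per kilobase, and Os08g0480100, of the signal recognition particle receptor that brings growing chains to the endoplasmic reticulum, at 1921. The highest of the endoplasmic reticulum proteins was Os02g0734900 at 800. Among the other vesicle transport genes Os01g0560200 stood at 1179, but it had 18990 in the OVT library of 16 DAF and 57.8 to 2480 elsewhere, and its level without that library was 479.6.

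Levels per kilobase were lower in the remaining roles. The highest clathrin coat gene, Os06g0731800, had 634 per kilobase, or 296 without the OVT library of 16 DAF, where it had 12720. The highest protein transporter, Os05g0155601, had 483, and the highest adaptor, Os05g0311000, had 474. The highest COPII gene, Os11g0433500, and the highest SNARE gene, Os07g0164300, both stood at 386, and the highest COPI gene, Os01g0281400, at 230. The highest gene of other membrane coats, Os06g0143900, had 276, and that of the genes with no further term, Os08g0282400, had 506. The median over genes was 289 per kilobase for GTP-binding proteins, 484 for membrane translocation and 13.5 for SNARE genes.

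The summed value of the 160 genes was 71407 in EN at 4 DAF, 78857 and 80684 in EN at 8 DAF, and 128040 and 102868 in EN at 16 DAF. In the CC, NE and AL libraries it ran from 37160 to 61565. OVT held 46751 to 60250 at 4 DAF, 82625 in MM21 and 53095 in MM22 at 8 DAF, and 106003 at 16 DAF. Both EN libraries of 16 DAF were thus above every CC, NE and AL library, while 1 OVT library of 8 DAF was above both EN libraries of that stage.

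**Figure D1:**
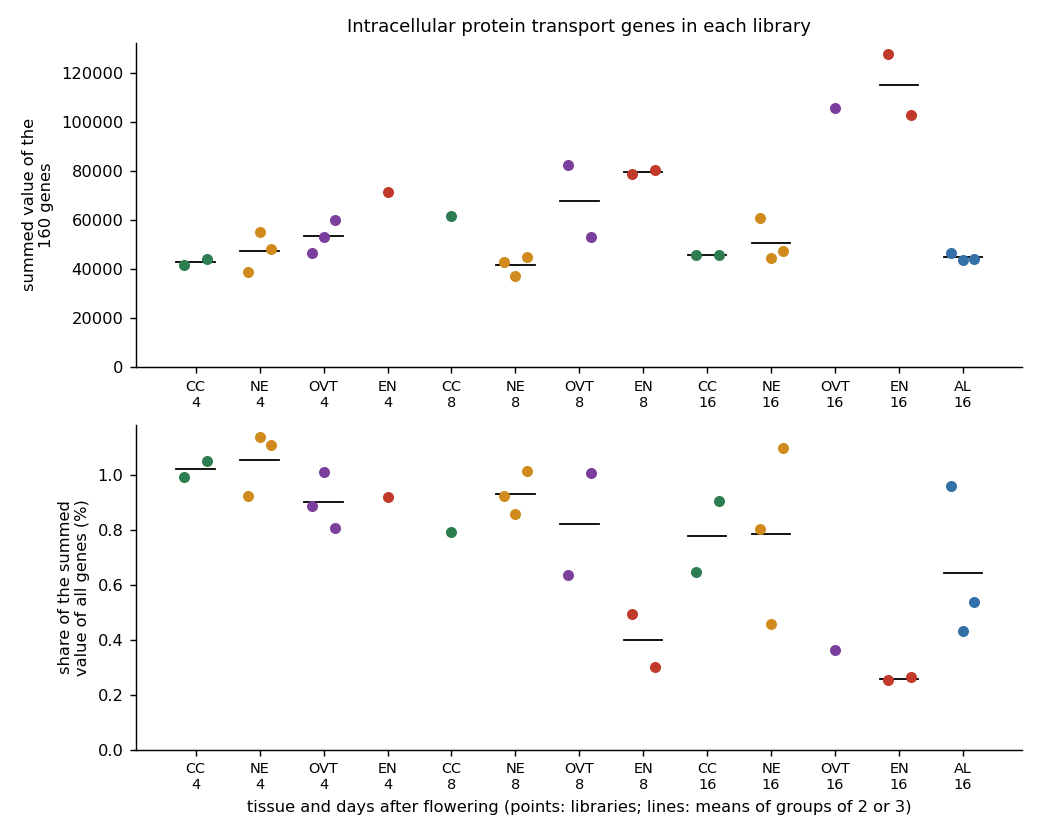
Summed deposited value of the 160 genes (upper panel, on the scale of the deposited values) and their share of the summed value of all genes in percent (lower panel), for each library by tissue and DAF. Points are libraries and lines are means of groups of 2 or 3 libraries. In the upper panel the EN libraries of 16 DAF (128040 and 102868) and the OVT library of that stage (106003) are the highest 3, and in the lower one EN of 16 DAF is lowest (0.252% to 0.264%).

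As a share of all signal, EN stood lowest of the tissues at 8 and 16 DAF. The genes took 0.922% of the signal in EN at 4 DAF, 0.301% to 0.496% at 8 DAF and 0.252% to 0.264% at 16 DAF, against 0.431% to 1.14% in CC, NE and AL. In OVT the share was 0.636% to 1.01% at 4 and 8 DAF and 0.363% at 16 DAF. The 10 most abundant genes took 46.3% to 56.9% of EN signal at 8 DAF and 41.8% to 51.4% at 16 DAF. The scale of the deposited values therefore bears on every comparison with EN of those stages, and both readings are given.

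At 16 DAF GTP-binding proteins made up 41.0% of the summed value of the genes in EN and membrane translocation 27.7%. The largest parts were those of 6 genes, with Os03g0240500 at 14.0%, Os08g0480100 at 11.4%, Os01g0558600 at 6.04%, Os01g0227300 at 5.62%, Os05g0489600 at 5.02% and Os02g0586400 at 4.84%. The summed mean of the GTP-binding proteins was 19744 at 4 DAF, 29662 at 8 DAF and 47336 at 16 DAF in EN, against 13394, 14961 and 20679 in NE. OVT stood nearer, at 19279, 25034 and 32475, and CC had 12177, 18388 and 17194. Membrane translocation summed to 8111, 19964 and 32036 in EN at the same stages. These role sums are on the deposited scale only and do not give shares of the signal. All genes in EN summed to 7748871 at 4 DAF and to 50726332 and 39031984 at 16 DAF.

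By group mean, 62 of the 154 genes (40.3%) were highest in EN at some stage, against 20.9% of all genes tested, and 29 of them were highest in EN at 16 DAF (18.8%, against 9.22%). OVT held the highest mean for 54 (35.1%, against 31.9%), CC for 27 (17.5%, against 27.5%), NE for 11 (7.14%, against 16.2%) and AL for 0 (against 3.49%). These shares are on the deposited scale and were not tested.

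EN was set against the other 3 tissues of its stage to find the genes of this traffic that differ in the storage tissue. Differences are between group means of log2(value + 10), fitted in limma over all 13 groups, and a gene is called higher or lower at a Benjamini-Hochberg adjusted p under 0.05 over the 27486 genes tested. Each comparison for EN uses the same libraries as that for OVT at the same stage, with EN and OVT on exchanged sides. Of the 154 genes, 98 (63.6%) were called in at least 1 of 12 comparisons, against 48.8% of all genes tested, and 42 were called higher in EN at some stage (27.3%, against 11.9% of all genes tested) while 12 were called lower (7.79%, against 13.6%).

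At 4 DAF, where EN had 1 library, 3 genes were higher in EN (1.95%, against 1.87% of all genes tested) and 0 were lower (against 0.557%). At an unadjusted p under 0.05 the counts were 13 higher and 5 lower, and voom called 6 and 0. The median difference of the 154 genes was 0.24, against −0.12 for all genes. The share of the genes called higher was close to that of all genes.

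A pair of clathrin coat genes, Os12g0104766 and Os11g0104866, led at this stage. Os12g0104766 had 1002 in the EN library and 0.411 to 21.1 in the 8 others of 4 DAF, a difference of 5.89 ± 1.19 (SE, adjusted p = 0.005104). Os11g0104866 had 970.4 against 0 to 21.4, a difference of 5.87 ± 1.18 (adjusted p = 0.004953). The EN library was above all others for both. Both genes are 1737 bases long, their values differed by a median of 15.3% and correlated at 0.989 over the 28 libraries, so reads may be shared between near-identical copies and the values of each are uncertain. The third call was Os03g0261950, a protein transporter at 19.4 in EN and 0 to 3.07 elsewhere (difference 1.51 ± 0.31, adjusted p = 0.005884), a low level at which the difference depends on the constant added. The 7 COPI genes all had positive differences, with a median of 1.28, but none of them passed the test.

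At 8 DAF, 20 genes were higher in EN (13%, against 5.43% of all genes tested) and 3 were lower (1.95%, against 7.43%). Their median difference was 0.40, against −0.08. Higher calls took in 6 of 42 GTP-binding proteins, 3 of 11 genes of membrane translocation, 2 of 4 clathrin coat genes and 2 each of the adaptors, other membrane coats, other vesicle transport genes and protein transporters. None of the 7 COPI, 10 COPII or 8 SNARE genes was called.

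Os03g0240500, annotated with GTP binding, translocation across membranes and the chloroplast outer membrane, had 7600 and 7252 in EN at 8 DAF. It had 210 to 254 in NE, 294.8 in CC, and 20.5 and 1174 in OVT. Both EN libraries were above all others, by 4.95 ± 1.13 (adjusted p = 0.005582).

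The clathrin coat pair was higher again. Os12g0104766 had 369.7 and 214 in EN against 0 to 19.5 in the other 6 libraries, a difference of 4.43 ± 0.94 (adjusted p = 0.003157). Its partner Os11g0104866 had 370.8 and 204.5 against 0 to 22.2 (4.44 ± 0.93, adjusted p = 0.002935). The groups did not overlap for either gene.

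Among genes lower in EN at 8 DAF, Os01g0732000, of the mitochondrial outer membrane translocation machinery, had 7.82 and 7.22, against 38.6 to 161.6 elsewhere (−2.52 ± 0.68, adjusted p = 0.01597). In EN MM22 a value of 7.22 stood for 1 estimated read, and 3 reads were worth 21.6. Os02g0734900, an integral protein of the endoplasmic reticulum, had 99.1 and 108 against 266 to 1359 (−2.46 ± 0.67, adjusted p = 0.01732). The last was the clathrin coat gene Os06g0731800, with 103 and 79.4 against 193 to 751 (−2.00 ± 0.56, adjusted p = 0.02075). All EN libraries were below all others for these 3 genes. The calls at 8 DAF leaned on both EN libraries and on the method. There was 1 gene higher without MM20, 3 without MM22, 4 in voom, and 2 higher and 1 lower in voom scaled to the library total. With the MM number of the titles as a block, 1 gene was higher and none lower. The labels do not say whether libraries with the same number share grains. Fewer genes were also called when the CC group of 1 library was left out of the other tissues. For all genes tested, the shares under these alternatives are not given, so these counts are not a result about the genes.

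At 16 DAF, 30 genes were higher in EN (19.5%, against 7.66% of all genes tested) and 11 were lower (7.14%, against 8.44%), with a median of 0.18 against −0.20. GTP-binding proteins gave 13 of the 30, with 4 lower and a median of 1.01 over 42 genes. Adaptors gave 4 higher and 0 lower of 12, genes with no further term 4 and 0 of 15, COPII genes 2 and 1 of 10, protein transporters 3 and 2 of 14, and membrane translocation 2 and 3 of 11. No COPI gene, endoplasmic reticulum protein or gene of other membrane coats was called.

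Os03g0240500 had 13170 and 19070 in EN at 16 DAF. It had 64.2 and 1746 in CC, 73.1 to 847 in NE and 611.6 in OVT, and EN was above all of them by 5.46 ± 1.13 (adjusted p = 0.001467). The value in EN was 1443 at 4 DAF, so each of the 5 EN libraries was above every other tissue of its stage, although the difference at 4 DAF, 1.87 ± 1.43, did not pass the test (adjusted p = 0.6419).

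GTP-binding proteins with terms for GTPase activity and nucleocytoplasmic transport were the other leading genes. Os01g0227300 had 5191 and 7780 in EN, against 22.2 to 744 in CC, NE and OVT (5.44 ± 0.81, adjusted p = 5.503e-05). Os02g0586400 had 3750 and 7416 against 55.6 to 612 (4.60 ± 0.71, adjusted p = 7.396e-05). Os06g0600301 had 2009 and 1630 against 0 to 220.5 (6.19 ± 1.41, adjusted p = 0.003372), and was at 161.9 in EN at 4 DAF. EN did not overlap the other tissues for any of the 3.

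The signal recognition particle receptor gene Os08g0480100 had 18070 and 8237 in EN at 16 DAF and 790 to 4529 in CC, NE and OVT, a difference of 2.77 ± 0.54 (adjusted p = 0.0007975). At 8 DAF it had 7998 and 10820 in EN, where OVT MM21 was above both at 14130 and the groups overlapped (2.15 ± 0.54, adjusted p = 0.009971).

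Genes lower in EN at 16 DAF included Os01g0626300, a mitochondrial outer membrane gene at 58.7 and 15.3 in EN, 99.5 to 296 in CC and NE and 5427 in OVT (−3.76 ± 0.59, adjusted p = 9.968e-05). The GTP-binding protein Os02g0327100 had 0 and 15.3 in EN, 28.7 to 119 in CC and NE and 6116 in OVT (−4.45 ± 0.87, adjusted p = 0.000853). Against CC and NE alone that gene differed by −2.38 (adjusted p = 0.071) and Os01g0732000 by −1.58 (adjusted p = 0.13), so both calls rested on the OVT library. EN was below every other library for Os01g0626300 and Os02g0327100.

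Against CC and NE alone, 13 genes were higher in EN at 16 DAF and 8 lower. Without EN MM17, 16 were higher and 14 lower. Scaled to the library total in voom, the split turned to 4 higher and 36 lower, so the direction of the count depended on the scale. The shares of all genes under these alternatives are not given, so these counts are not a result about the genes. In the voom fit scaled to the library total the median was −1.63 for the 154 genes and −2.61 for all genes tested. The median of the 154 genes was thus above that of all genes on both scales. The lists differ in level, however, with medians in EN at 16 DAF of 232 for the genes and 4.36 for all genes tested. No list of like level was compared, so the gap between the medians may reflect level.

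**Figure D2:**
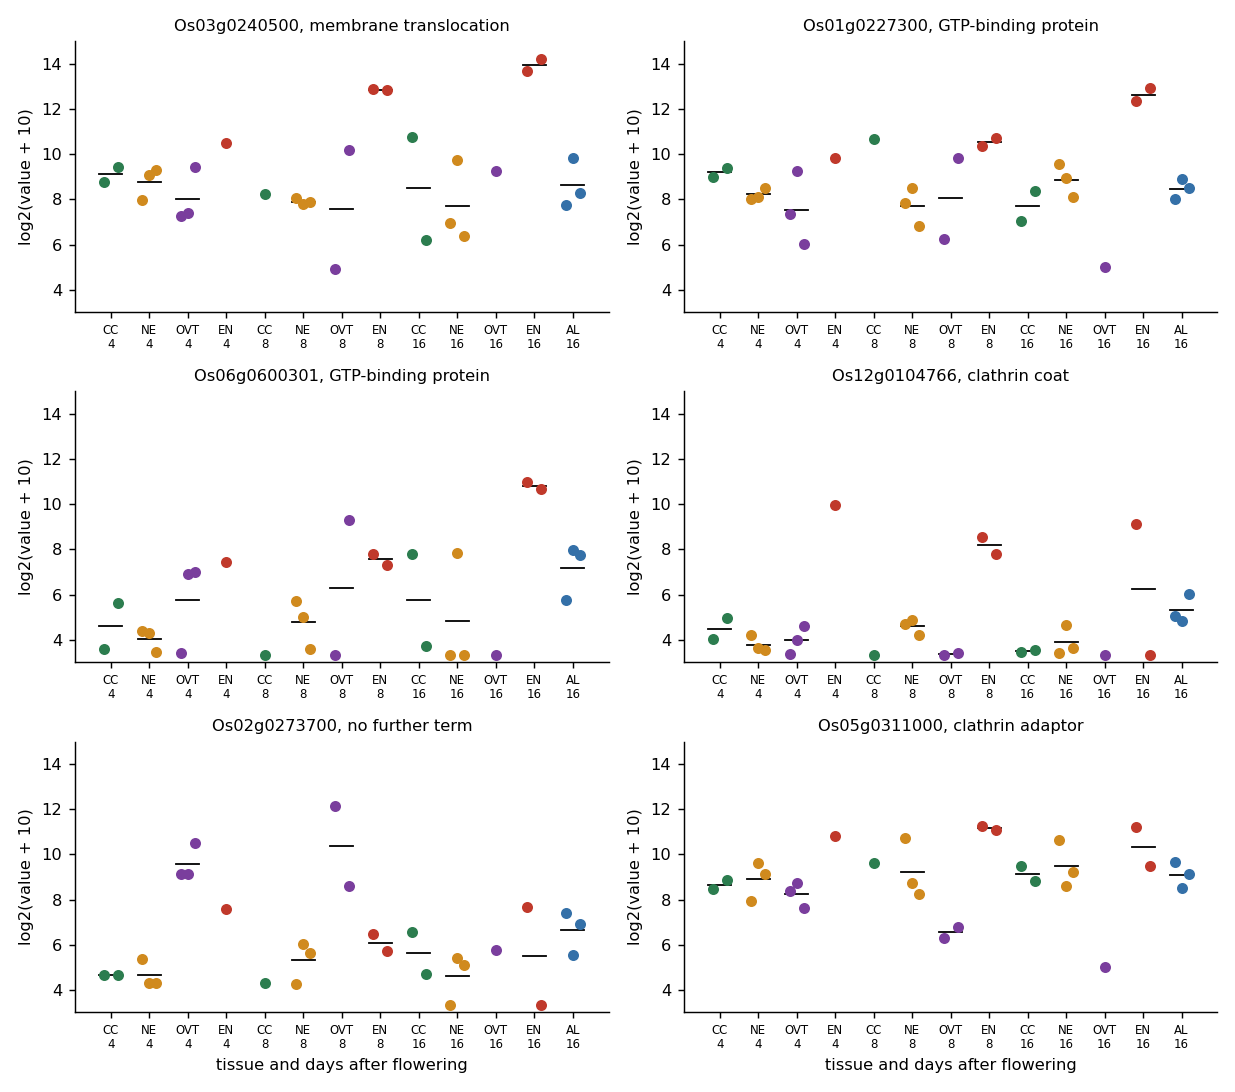
Deposited values of 6 genes, as log2(value + 10), in each library by tissue and DAF; points are libraries and lines are means of groups of 2 or 3. Os03g0240500 is highest in EN at every stage (1443 to 19070), Os12g0104766 is high in EN (214 to 1002) except in 1 library of 16 DAF at 0, and Os02g0273700 is high in OVT at 4 and 8 DAF (374 to 4500).

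The EN libraries of 8 and 16 DAF are separate, as are those of CC, NE and OVT. Of the genes higher in EN, 9 were shared by the stages, 45% of the 20 of 8 DAF and 30% of the 30 of 16 DAF. For all genes the shares were 46.6% and 33.0%. The 9 included Os03g0240500, Os08g0480100, the GTP-binding protein Os01g0558600 and the adaptor Os05g0311000. The clathrin coat pair was not among them, since Os12g0104766 had 553.6 in EN MM17 of 16 DAF but 0 in MM18. Between 8 and 4 DAF that pair was what the stages shared, 10% of the 20 genes and 66.7% of the 3, against 9.52% and 27.7% for all genes.

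OVT was set against the other 3 tissues in the same way. At 4 DAF, 4 genes were higher in OVT (2.60%, against 6.08% of all genes tested) and 3 were lower (1.95%, against 5.62%), with a median of −0.37 against −0.20. The called shares were below those of all genes in both directions. GTP-binding proteins gave 3 of the 4, and the other, Os02g0273700, has no term beyond its place inside the cell.

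Os02g0273700 had 546.6, 556 and 1465 in OVT at 4 DAF, 183 in EN and 9.52 to 30.7 in CC and NE, so that all OVT libraries were above all others. The difference was 3.96 ± 0.91 (adjusted p = 0.005128). The GTP-binding protein Os03g0146000 had 840.0, 1263 and 581.5 in OVT, against 152 to 320 elsewhere (1.82 ± 0.57, adjusted p = 0.03754). Of the genes lower in OVT, the protein transporter Os05g0353400 had 95.6 to 196 against 207 to 592 in CC and NE and 3405 in EN (−2.52 ± 0.75, adjusted p = 0.03002). Without the EN library that difference was −1.48 (adjusted p = 0.24). Without CC MM05, or without OVT MM05, 1 gene was higher and 2 were lower, and TMM scaling turned the split to 2 higher and 6 lower.

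At 8 DAF, 6 genes were higher in OVT (3.90%, against 5.77% of all genes tested) and 11 lower (7.14%, against 4.06%), with a median of −0.30 against −0.13. Endoplasmic reticulum proteins gave 3 of the 6 higher genes, with 1 lower, and had a median of 1.38 over 10 genes, 8 of them positive. COPI genes had a median of −1.27, with all 7 negative and 1 of them called. The lower genes also took in 2 GTP-binding proteins and 2 other vesicle transport genes.

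Os02g0273700 was higher again, with 4500 in MM21 and 374 in MM22 against 9.13 to 78.2 elsewhere (5.13 ± 1.05, adjusted p = 0.002389). The endoplasmic reticulum protein Os03g0848400 had 1499 and 136 against 0 to 28.9 (4.66 ± 1.01, adjusted p = 0.004213). Both OVT libraries were above all others for both genes, with MM21 far above MM22. Without MM21 the differences were 3.35 (adjusted p = 0.15) and 2.98 (adjusted p = 0.20).

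Of the genes lower in OVT at 8 DAF, the adaptor Os05g0311000 had 69.8 and 99.3 against 294 to 2479 elsewhere (−3.47 ± 0.69, adjusted p = 0.001967). The COPI gene Os09g0127800 had 0 and 97.0 against 238 to 682 (−3.55 ± 0.83, adjusted p = 0.00763). OVT lay below all others for both, and the difference of the COPI gene without MM21 was −1.84 (adjusted p = 0.34). The counts were 2 higher and 2 lower without MM21, 14 and 23 without MM22, 3 and 13 with TMM scaling, and 2 and 0 in voom.

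**Figure D3:**
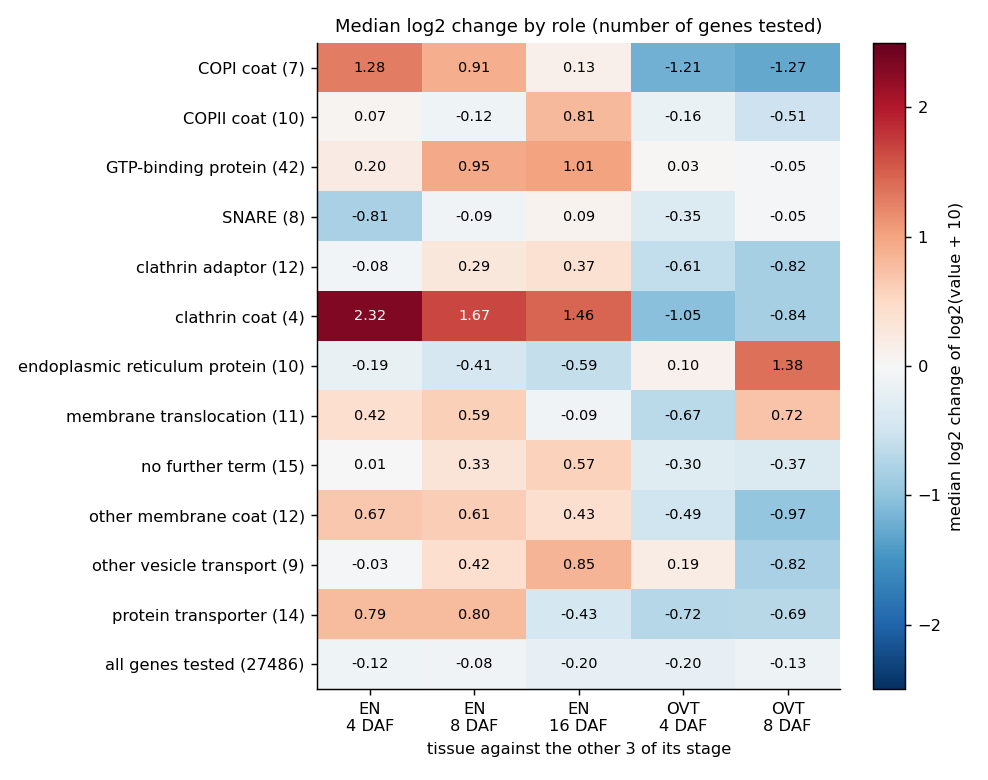
Median difference of log2(value + 10) over the tested genes of each role (rows, with the number of genes) for EN and OVT against the other 3 tissues of a stage (columns), on a colour scale from blue (lower) to red (higher). COPI genes have medians of 1.28, 0.91 and 0.13 in EN and −1.21 and −1.27 in OVT at 4 and 8 DAF, fits that share libraries. OVT at 16 DAF, with 1 library and a COPI median of 1.11, is not drawn, and the last row gives all 27486 genes tested.

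At 16 DAF the single OVT library gave 14 genes higher (9.09%, against 9.08% of all genes tested) and 42 lower (27.3%, against 9.14%), with a median of −1.70 against −0.60. In this library 99 of the 160 genes were above 10, and the value of 1 read was 11.1. Its marker levels were those given above. Lower calls took in 15 of 42 GTP-binding proteins and 5 of 12 adaptors. Os03g0151900, a GTP-binding protein, had 0.318 against 149.5 to 838 in the other 7 libraries of CC, NE and EN (−5.22 ± 1.06, adjusted p = 0.0008351), and the Golgi vesicle protein transporter Os12g0538900 had 0 against 29.1 to 1609 (−5.17 ± 1.35, adjusted p = 0.007452). Fitted differences of genes at 0 depend on the constant added, and voom called 13 higher and 7 lower, or 10 and 17 when scaled to the library total.

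Some genes were far higher in that library. Os02g0327100 had 6116 against 0 to 119 (7.0 ± 1.11, adjusted p = 5.837e-05). The clathrin coat gene Os06g0731800 had 12720 against 138 to 478 (5.58 ± 0.72, adjusted p = 5.177e-06), and Os01g0732000, of the mitochondrial outer membrane, had 2257 against 6.52 to 86.7 (5.86 ± 0.87, adjusted p = 2.952e-05). None of the 14 genes higher here was among the 6 higher in OVT at 8 DAF, where all genes shared 20.5% and 13% of their lists. Of the lower genes 6 were shared, 54.5% of the 11 of 8 DAF and 14.3% of the 42, against 24.1% and 10.7% for all genes. Over the stages, 23 genes were higher in OVT at some stage (14.9%, against 16.8% of all genes tested) and 48 were lower (31.2%, against 16.5%). Without 16 DAF, 9 were higher (5.84%, against 9.24%) and 12 were lower (7.79%, against 8.66%).

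EN and OVT were compared directly at 8 DAF, with 2 libraries each, all of which also enter the fits above. EN was higher for 16 genes (10.4%, against 4.97% of all genes tested) and lower for 9 (5.84%, against 6.65%), with a median of 0.56 against 0.00. GTP-binding proteins gave 7 higher and 2 lower, and endoplasmic reticulum proteins 0 higher and 4 lower, with a median of −1.81. COPI genes had a median of 1.64 with 1 called.

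Os05g0311000 had 2479 and 2147 in EN against 69.8 and 99.3 in OVT, 4.63 ± 0.82 higher (adjusted p = 0.0005358). Os05g0155601, a protein transporter of import into the nucleus, had 2712 and 1436 against 4.11 and 256 (5.02 ± 1.25, adjusted p = 0.00942). In the other direction the GTP-binding protein Os03g0200800 had 0.869 and 0 in EN and 365 and 154 in OVT (−4.57 ± 1.34, adjusted p = 0.02693). The groups did not overlap for these genes. The counts were 1 and 0 without EN MM20, 4 and 0 without EN MM22, 5 and 1 without OVT MM21, 25 and 9 without OVT MM22, 30 and 5 with TMM scaling, 5 and 1 in voom, and 3 and 4 in voom scaled to the library total.

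AL was set against EN at 16 DAF, since both arise from the same filial tissue. It was higher for 10 genes (6.49%, against 6.62% of all genes tested) and lower for 8 (5.19%, against 3.89%), with a median of −0.10 against 0.28. GTP-binding proteins gave 2 higher and 6 lower, protein transporters 3 higher, and endoplasmic reticulum proteins 2 higher with a median of 1.72.

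Os01g0235400, a protein transporter, had 69.2 to 254 in the AL libraries and 0 in both EN libraries, where 3 reads were worth 4.89 and 11.5 (4.00 ± 1.03, adjusted p = 0.01401). Os01g0343200, of import into the nucleus, had 72.3 to 208.5 against 1.63 and 0 (3.69 ± 1.07, adjusted p = 0.02811). Lower in AL were Os03g0240500, at 205 to 904 against the values of EN given above (−5.32 ± 1.23, adjusted p = 0.007094), and Os01g0227300, at 247 to 464 (−4.17 ± 0.88, adjusted p = 0.003635). AL and EN did not overlap for these 4 genes. AL was higher for 2 genes and lower for 4 without AL MM04, 4 and 6 without AL MM17, 3 and 5 without AL MM18 or without EN MM18, and 13 and 4 without EN MM17. Voom scaled to the library total gave 59 higher and 2 lower, and TMM scaling 16 and 6. The shares of all genes under these scalings are not given, so these counts are not a result about the genes. In the fit above, 48.1% of the genes had a positive difference, against 73.7% of all genes tested. The lists differ in level here too. Medians for the genes and for all genes tested were 232 and 4.36 in EN, and 170 and 25.9 in AL. Whether the gap between the shares reflects level was not tested.

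Stages were compared within a tissue, and few genes passed. In EN, 0 genes were higher at 16 than at 8 DAF (against 0.538% of all genes tested) and 2 were lower (1.30%, against 0.935%), with 4 and 22 at an unadjusted p under 0.05 and 0 and 0 in voom. The median was −0.40 against −0.06, and 13 were lower without EN MM17 of 16 DAF. Os01g0235400 had 468.5 and 166 in EN at 8 DAF and 0 in both libraries at 16 DAF (−4.86 ± 1.12, adjusted p = 0.02577), and the COPII gene Os01g0321700 had 335.5 and 231 and then 1.63 and 19.2 (−3.97 ± 0.94, adjusted p = 0.02929). The libraries of the stages did not overlap for either.

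In OVT, 1 gene was higher at 8 than at 4 DAF (0.649%, against 0.444% of all genes tested) and 0 were lower (against 0.779%), with 11 and 15 at an unadjusted p under 0.05 and 0 and 0 in voom. That gene was Os03g0848400, at 4.66 to 19.3 at 4 DAF and the 8 DAF values given above (4.40 ± 1.10, adjusted p = 0.04659). Without OVT MM22 of 8 DAF, 9 genes were higher and 9 lower.

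In NE, 1 gene was higher at 16 than at 4 DAF (0.649%, against 2.74% of all genes tested) and 3 were lower (1.95%, against 4.26%). Os01g0558600 had 677 to 917 at 4 DAF and 1649 to 4894 at 16 DAF, without overlap (1.85 ± 0.42, adjusted p = 0.008095). Os02g0496900, of the mitochondrial outer membrane, had 339.5 to 564 at 4 DAF and 39.2 to 140.5 at 16 DAF (−2.34 ± 0.69, adjusted p = 0.04195). TMM scaling turned the split to 2 higher and 0 lower, voom scaled to the library total gave 0 and 5, and without NE MM06 or NE MM13 of 4 DAF it was 1 and 0.

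In CC, 0 genes were higher at 16 than at 4 DAF (against 0.724% of all genes tested) and 3 were lower (1.95%, against 2.00%), with 4 and 13 at an unadjusted p under 0.05 and 0 and 0 in voom. Both CC libraries of 4 DAF carry the title prefix X and both of 16 DAF the prefix B. Stage and prefix therefore cannot be told apart in CC, and with the prefix as a covariate 0 genes were lower. Os05g0353400 had 490.1 and 592 at 4 DAF and 36.4 and 6.42 at 16 DAF (−4.31 ± 1.03, adjusted p = 0.02263), with no overlap. Without either CC library of 4 DAF, MM05 with its double label or MM13, the count was 0.

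**Figure D4:**
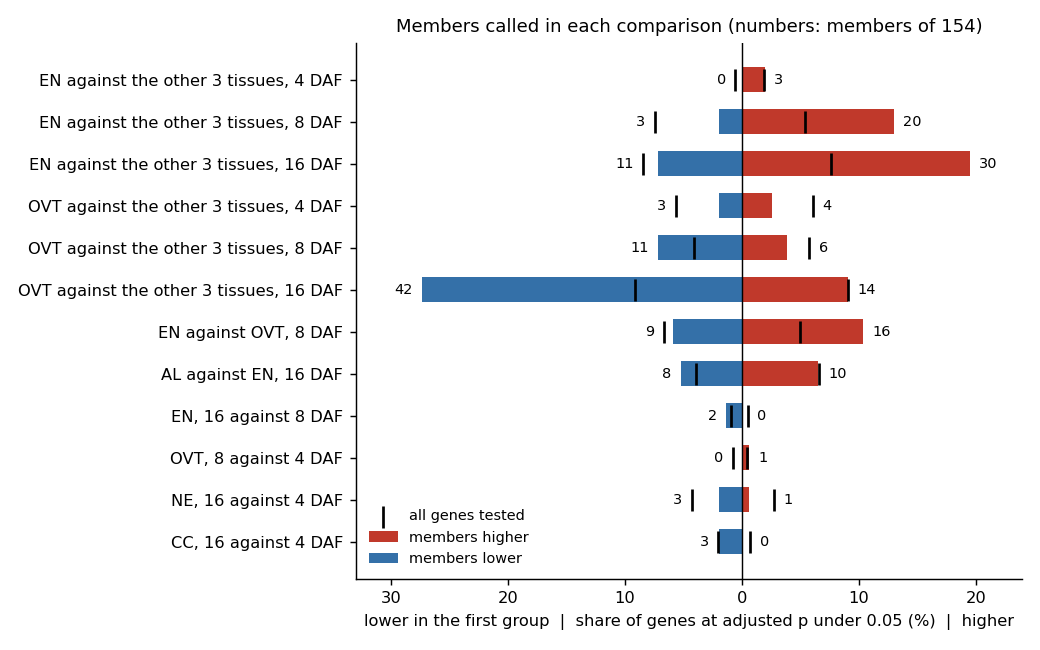
Share of the 154 tested genes called lower (bars to the left) or higher (bars to the right) in the first group of each comparison at adjusted p under 0.05, in percent, with the number of genes beside each bar. Black ticks give the same share of all 27486 genes tested, and the bars pass them most clearly for EN higher at 8 and 16 DAF (13% and 19.5%) and for OVT lower at 16 DAF (27.3%), which rests on 1 library. The EN bars also depend on the libraries. Fewer genes were higher in EN at 8 DAF without either EN library, and at 16 DAF against CC and NE alone.

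A further list of transport genes and the list of protein folding genes are given as a description. Among 102 tested genes with the terms for vesicle-mediated or protein transport but not the one above, EN was higher for 1, 16 and 15 genes in stage order (0.98%, 15.7% and 14.7%). It was lower for 0, 2 and 8 (0%, 1.96% and 7.84%). Of all genes tested, 1.87%, 5.43% and 7.66% were higher and 0.557%, 7.43% and 8.44% were lower. The medians of the 102 genes were 0.45, 0.59 and 0.44, against −0.12, −0.08 and −0.20 for all genes. OVT was higher for 4 and 1 of the 102 genes at 4 and 8 DAF (3.92% and 0.98%, against 6.08% and 5.77% of all genes tested). It was lower for 4 and 7 (3.92% and 6.86%, against 5.62% and 4.06%). Among 182 tested genes of protein folding, EN was higher for 8, 16 and 14 (4.4%, 8.79% and 7.69%) and lower for 1, 13 and 22 (0.549%, 7.14% and 12.1%). The median of the folding genes at 16 DAF was −0.39.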

How the data were processed

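Per-gene RNA-seq values of 28 laser-captured libraries in 13 groups were analysed. The labels and the study's methods name STAR, the IRGSP-1.0 genome and edgeR, with versions not given in the sources used here, and how reads that match several genes or the antisense strand were counted is not stated. The signal values were deposited by the authors as scaled per-gene signal, although the table is called read counts. In each library 86.0% to 95.7% of low values fell on whole multiples of 1 step, with a tolerance of 0.03 reads, which gave the value of 1 read and the estimated depth, and values between the steps occurred, so a count test was not used. Another 1 signal column matched no sample and was not used.

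Genes that reached both a value above 10 and 10 estimated reads in any library were tested with limma 3.58.1 (R 4.3.3) on log2(value + 10), with 1 mean per group, a variance trend, a robust prior and two-sided p-values, adjusted over all genes tested at a threshold of 0.05. Groups of 1 library take their spread from the other groups. The fit was also run on simulated data, and no result here rests on that run. Alternatives were TMM factors, an added constant of 1 or 30, no filter, the title prefix as a covariate, a replicate block, voom on estimated reads, the other tissues restricted to groups of 2 or more libraries, and leaving out each library. Voom scaled to the library total was chosen after seeing the data. Shares of all genes tested are given for the main fit only, so counts under the alternatives are not a result about the genes. Differences on the log2(value + 10) scale understate changes of low genes, and the value of 3 reads covers counting error only.

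The genes and lists were chosen with earlier results of these data known. Roles were assigned from annotation terms, because none of the identifiers was in the reference table of gene names, so roles planned from product names and the planned storage traffic factors could not be applied. Named genes were taken from the 5 largest differences in each direction that passed the test without overlap of libraries, with at most a few printed for each comparison, and from the gene of each role with the highest value per kilobase. Os08g0480100 and Os01g0558600 are also named in EN after their values were seen. Sequences were not used here.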

Additional observations from a re-analysis of the deposited data

How the results depend on the processing

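Over all alternatives, 211 counts of called genes stayed within 1.5 times those reported and 129 did not. The 75 calls of named genes kept their call in 804 values, lost it in 294 and changed sign in 0, and 14 held in every setting run. TMM scaling moved the median difference of all genes by −0.18 to 0.15, by over 0.1 in 3 of 12 comparisons. It gave 5 genes higher in EN at 4 DAF, 2 higher and 6 lower in OVT at 4 DAF, 3 higher in OVT at 8 DAF, 30 and 5 for EN against OVT, 16 higher in AL, 4 lower in EN at 16 against 8 DAF, 0 higher in OVT at 8 against 4 DAF, and 2 and 0 in NE. A constant of 1 gave 1 higher in EN at 4 DAF, 5 lower for EN against OVT, 18 higher in AL, 6 lower in EN and 0 higher in OVT between stages, and 1 lower in NE and in CC. A constant of 30 gave 5 lower in EN at 8 DAF, 3 higher in AL and 1 lower in EN between stages. With no filter 0 were higher in OVT between stages, and with the title prefix 0 were higher and 1 lower in OVT, 1 lower in NE and 0 lower in CC. In stage order, voom gave 6 higher, then 4 and 0, then 18 and 6 in EN, and 2 and 1, then 2 and 0, then 7 lower in OVT, with 5 and 1 for EN against OVT, and between stages 0 lower in EN, 0 higher in OVT and NE, and 0 lower in CC. Scaled to the library total, voom gave 2 and 1 in EN at 8 DAF, 4 and 36 at 16 DAF, 1 and 1 in OVT at 4 DAF, 2 and 0 at 8 DAF, 17 lower at 16 DAF, 3 and 4 for EN against OVT, 59 and 2 for AL, 0 higher in OVT, 0 and 5 in NE and 0 lower in CC. With the other tissues restricted to groups of 2 or more libraries, EN had 12 and 1 at 8 DAF and 13 higher at 16 DAF, and OVT had 0 lower at 4 DAF. The replicate block gave 1 and 0 in EN at 8 DAF, 2 higher in OVT at 4 DAF, 3 and 7 at 8 DAF, 2 and 1 for EN against OVT and 6 higher in AL. Libraries with the same number deviated together with a median correlation of 0.0222 over 25 pairs, from −0.1946 to 0.4606, against −0.0153 over 49 pairs with different numbers. A correlation over 0.1 was reached by 6 of the 25 pairs and by 4 of the 49. The numbers were not taken to pair libraries in the main fit (tissues were cut in series from sections at 16 DAF, and which libraries share grains is not stated). No replicate block was possible between stages because the numbers are nested in stages. Leaving out 1 library at a time, the genes higher ranged from 3 to 4, 1 to 25 and 16 to 30 for the stages of EN, from 1 to 4, 2 to 14 and 14 to 15 in OVT, from 1 to 25 for EN against OVT, from 2 to 13 in AL, and from 0 to 0, 0 to 9, 0 to 3 and 0 to 2 between stages in EN, OVT, NE and CC. The genes lower ranged from 0 to 0, 0 to 6 and 9 to 14 in EN, from 1 to 5, 2 to 23 and 42 to 48 in OVT, from 0 to 9 for EN against OVT, from 4 to 6 in AL, and from 0 to 13, 0 to 9, 0 to 5 and 0 to 1 between stages. A lone library left in a group is assumed to vary like the other groups. The causes were not tested.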
